A study of Homo sapiens with 4 samples.

Results

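The TGF-beta ligands, receptors and SMADs described here are 9 genes of HCCLM3, a human hepatocellular carcinoma cell line with a high rate of metastasis in mice. They are the ligands TGFB1 and TGFB2, the receptors TGFBR1 and TGFBR2, the signal carriers SMAD2, SMAD3 and SMAD4, and the negative regulators SMAD7 and SKIL. They were taken as a fixed list of gene symbols, and every probe set (a group of short probes for one transcript) with 1 of these symbols was used. This gave 33 of the 54613 non-control probe sets and 9 of the 19775 genes named on the array. The 4 samples were 4 groups of 1 Affymetrix Human U133 Plus 2.0 array each, from cells sorted magnetically for EpCAM, an epithelial surface protein that also marks liver tumour-initiating cells. EpCAM-positive cells received 40 µM Antagomir-429, a cholesterol-conjugated antisense RNA against the microRNA miR-429, or 40 µM of its control, Antagomir-NC. EpCAM-negative cells received 100 nM miR-429 mimics, a synthetic duplex that supplies the microRNA, or 100 nM of the control duplex, miR-NC mimics, delivered with a transfection reagent. Treatment lasted 4 days, and by its title the series looked for target genes of miR-429. All groups share the single cell line, and no group has a second array, so each value below is 1 measurement with no replicate error, and no test was possible.

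TGF-beta is secreted in a latent form and, once released, binds the type II receptor TGFBR2, which recruits and phosphorylates the type I receptor TGFBR1. TGFBR1 phosphorylates SMAD2 and SMAD3, which join SMAD4 and enter the nucleus to regulate genes. SMAD7 blocks the activated receptor and SKIL (SnoN) represses SMAD-driven transcription, and both are themselves induced by the pathway as feedback. In liver, TGF-beta is known for restraining the growth of hepatocytes, and in advanced carcinoma it is known for promoting epithelial-mesenchymal transition. The miR-200 family, to which miR-429 belongs, is known for opposing that transition.

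The sequence that the mimics supply and the antagomir targets is shown with its relatives, because the seed, bases 2 to 8, sets which messenger RNAs a microRNA pairs with. Sequences are RefSeq mature forms on GRCh38.p14, written 5′ to 3′, with the seed in capitals. The genes of miR-429 and miR-200b lie on the plus strand of chromosome 1, at chr1:1169055-1169076 and chr1:1167160-1167181, and that of miR-200c on the plus strand of chromosome 12, at chr12:6963742-6963764.
hsa-miR-429: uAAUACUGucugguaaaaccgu
hsa-miR-200b-3p: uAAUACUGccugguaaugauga
hsa-miR-200c-3p: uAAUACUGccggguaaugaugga
hsa-miR-200a-3p: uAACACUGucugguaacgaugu
hsa-miR-141-3p: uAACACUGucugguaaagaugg
The first 3 share the seed AAUACUG, and the other 2 have AACACUG. The messenger RNA sequences of the 9 genes were not used here, so seed matches in them were not counted.

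The values are MAS5 signals, deposited as log2 and scaled by the authors to the same trimmed mean on each array (500.1). A probe set or gene is called expressed when its mean log2 signal over the 4 arrays is at or above the median of all non-control probe sets, a signal of 52.9, called the floor. All 9 genes were expressed by their brightest probe set, as were 13180 of the 19775 genes. At the level of probe sets, 19 of the 33 passed. The other 14 ranged between signals of 1.3 and 108 and varied widely, with 8, 8 and 9 of them past 2-fold in the mimic, antagomir and EpCAM comparisons, so that they carry no result below.

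The messenger RNA of EPCAM did not separate the sorted fractions. Its signal was 913 with Antagomir-429 and 1235 with Antagomir-NC in cells labelled EpCAM-positive, against 3838 with miR-429 mimics and 1106 with miR-NC mimics in cells labelled EpCAM-negative. Surface protein, on which the sort rests, was not measured on the arrays. Of the 4 epithelial line markers 3 were expressed: EPCAM and the simple-epithelial keratins KRT8 and KRT18, which were bright on every array (28365 and above). The keratin KRT19, also of simple epithelia, was not expressed, with signals of 4.33 to 12.4. In the same cells 3 of 9 measured hepatocyte markers were expressed: AFP (91.5 to 119), APOA1 (66.2 to 91.7) and AMBP (32.0 to 121). ALB, the gene of albumin, was not expressed, with signals of 4.0 to 51.0. Among 5 leukocyte markers 2 were expressed, CD3E at 54.8 to 136 and ITGAM at 24.0 to 113. ITGAM was under the floor only with miR-NC mimics. PTPRC, the pan-leukocyte marker, was not expressed, at 3.2 to 35.7. The summed leukocyte signal was 221 and 274 in the EpCAM-positive arrays against 306 and 173 in the EpCAM-negative ones. Among 8 stroma and endothelium markers 6 were expressed, with sums of 1146 to 1252. Spike-in controls were 0.66 log2 units lower on the miR-429 mimics array than on the miR-NC mimics array, and 0.18 and 0.33 lower in the antagomir and EpCAM comparisons. In the mimic comparison log2 differences also followed the length of the gene on the genome: with expressed genes split into 5 bins of gene span, the bin of shortest genes had a median of -0.19 and the bin of longest genes 0.22. In the antagomir comparison these medians were -0.02 and 0.05.

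TGFBR1, the type I receptor, had the widest range of the 9 genes by the brightest probe set, and the range lay between the sorted fractions. With the miR-429 mimics its log2 difference was 0.16 and with Antagomir-429 it was -0.10. Its brightest probe set (224793_s_at) had signals of 641 with Antagomir-429 and 685 with Antagomir-NC in EpCAM-positive cells, against 1740 with miR-429 mimics and 1560 with miR-NC mimics in EpCAM-negative cells. Both EpCAM-positive arrays were below both EpCAM-negative arrays, with EpCAM-negative over EpCAM-positive folds of 2.28 to 2.71 over the 4 pairings. Between the control arrays the log2 difference was -1.19, and between the treated arrays it was -1.44. The second expressed probe set (206943_at) gave signals of 112 and 72.7 against 192 and 148, the same order of fractions. Its log2 differences of -1.03 and -0.78 were 1.25 and 0.995 times the scatter of genes of like signal (robust SD 0.82 and 0.78). By the brightest probe set, the brighter EpCAM-positive array lay at least 2-fold below the dimmer EpCAM-negative one in 1 of the 9 genes. The same held for 55 of 13180 expressed genes (0.417%). The fractions also differed in reagent and delivery, since only EpCAM-negative cells were transfected, and sort and reagent cannot be told apart here.

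**Figure D1:**
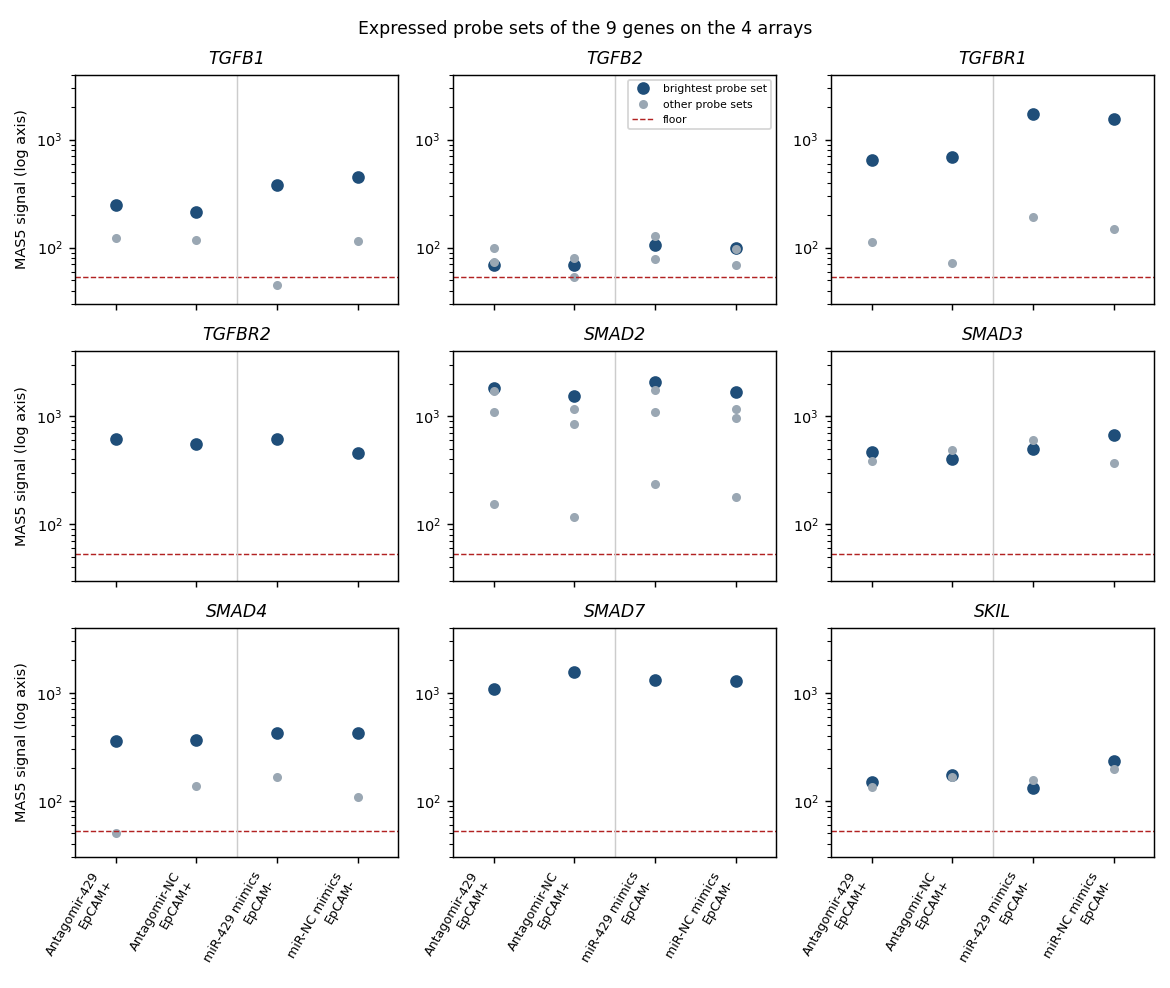
MAS5 signal (log axis) of the 19 expressed probe sets of the 9 genes on the 4 arrays, with the brightest probe set of each gene in dark blue, its other expressed probe sets in grey, and the floor of 52.9 as a dashed line. By the brightest probe set TGFBR1 is at 641 and 685 on the EpCAM-positive arrays left of the vertical line and at 1740 and 1560 on the EpCAM-negative arrays right of it. The brightest probe set of SMAD4 lies between 361 and 427 on all 4, and its other expressed probe set between 50.1 and 167.

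TGFB1, the most widely expressed TGF-beta ligand, was lower in EpCAM-positive cells by 1 of its 2 expressed probe sets. The brighter (203085_s_at) had signals of 247 with Antagomir-429 and 212 with Antagomir-NC, against 383 with miR-429 mimics and 447 with miR-NC mimics. Here too both EpCAM-positive arrays lay below both EpCAM-negative ones, with a log2 difference of -1.07 between the controls and -0.64 between the treated arrays. The dimmer (203084_at) had 122 and 118 against 45.0 and 115, a log2 difference of 0.03 between the controls, so it did not show the gap, and between the treated arrays it was at least 2.3-fold higher in EpCAM-positive cells. The median over the probe sets was -0.52 between the controls. TGFB2, a second ligand, was dim by all 3 expressed probe sets, between 53.4 and 128. Its brightest (228121_at) had 68.9 and 69.6 in EpCAM-positive cells and 106 and 99.1 in EpCAM-negative cells, and the log2 differences of -0.51 between the controls and -0.62 between the treated arrays were within the scatter of genes of like signal (robust SD 0.82 and 0.78).

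The type II receptor TGFBR2 did not share the pattern of TGFBR1. Its only expressed probe set (208944_at) had signals of 618 with Antagomir-429 and 555 with Antagomir-NC, against 619 with miR-429 mimics and 459 with miR-NC mimics. The miR-NC mimics array was the lowest, and the other 3 lay within 555 to 619. The log2 difference was 0.27 between the controls and -0.00 between the treated arrays.

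Over the 9 genes, 2 were past 2-fold lower and 0 higher in the control EpCAM-positive array over the control EpCAM-negative array (TGFB1 and TGFBR1), where 8.32% of all expressed genes were past 2-fold in either direction, 4.7% lower and 3.62% higher. By probe set, 3 of 19 were past 2-fold, all lower (both of TGFBR1 and the brighter of TGFB1), beside 10.8% of expressed probe sets in either direction and 5.69% lower. The members' median log2 difference was -0.44, with 7 of 9 below 0, beside a median of -0.02 over all expressed genes, of which 47.8% were above 0. Between the treated arrays 1 was past 2-fold (TGFBR1), 8 of 9 were below 0, and the median was -0.24. For this pair 414 of the 13180 expressed genes were past 2-fold higher and 667 lower. Their median was 0.005, and 50.5% were above 0. By the brightest probe set, both EpCAM-positive arrays lay below both EpCAM-negative arrays in 5 genes (TGFB1, TGFB2, TGFBR1, SMAD3 and SMAD4). This pattern was met by 18.9% of expressed genes, and the opposite order, met by 17.2%, was held by 0 of the 9. Another expressed probe set broke the order in TGFB1, TGFB2, SMAD3 and SMAD4, so only TGFBR1 kept it by all of its expressed probe sets. With the median over each gene's expressed probe sets in place of the brightest, the members' median between the controls was -0.17 and 1 gene was past 2-fold.

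**Figure D2:**
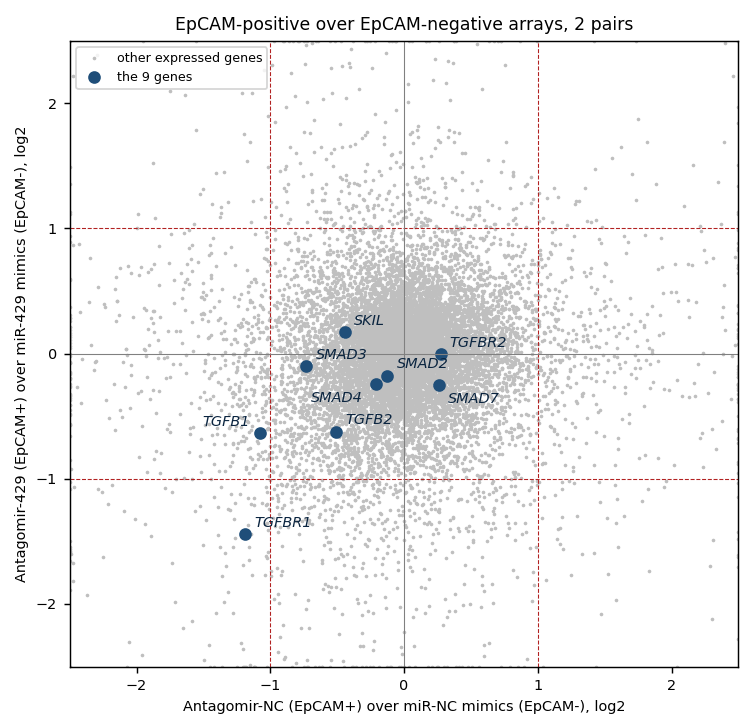
Log2 difference of EpCAM-positive over EpCAM-negative arrays for each expressed gene, in the control pair (x axis) and the treated pair (y axis), which share no array, with 2-fold marked by dashed lines and genes beyond the axes drawn at the edge. TGFBR1 is the only 1 of the 9 genes past 2-fold lower in both pairs (-1.19 and -1.44), as were 105 of all 13180 expressed genes (0.797%).

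With miR-429 mimics, 0 of the 9 genes were past 2-fold by the brightest probe set, where 9.01% of expressed genes were, 5.25% higher and 3.76% lower. The members' log2 differences ran between -0.82 and 0.43 with a median of 0.02, beside -0.00 over all expressed genes. By probe set, 1 of 19 was past 2-fold against 11.3% of all expressed probe sets. It was the dimmer probe set of TGFB1, at least 2.2-fold lower if the miR-429 mimics signal is set to the floor, while the brighter had -0.22. A probe set that falls under the floor on 1 array has only a bound there.

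SKIL, the SMAD corepressor, had the lowest value of the 9 with the mimics. Its brightest probe set (217591_at) had a signal of 132 with miR-429 mimics, against 233 with miR-NC mimics, and of 149 with Antagomir-429, against 172 with Antagomir-NC. The miR-NC mimics array was the highest of the 4. The log2 differences were -0.82 with the mimics and -0.21 with the antagomir, the first of which was 1.55 times the robust SD of 0.53 among genes of like signal. A second probe set (225227_at) had -0.34 and -0.31. SKIL was the only gene of the 9 below 0 in both comparisons, as were 27% of expressed genes.

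The receptor-activated SMADs differed from each other. SMAD2 was higher on both treated arrays by all 4 of its expressed probe sets. The brightest (203076_s_at) had 2056 with miR-429 mimics against 1685 with miR-NC mimics, and 1820 with Antagomir-429 against 1538 with Antagomir-NC. The largest differences came from the next brightest (203075_at), with 1741 against 1169 and 1725 against 1174. Over the 4 probe sets the log2 differences ran between 0.19 and 0.57 with the mimics and between 0.24 and 0.56 with the antagomir, so the 2 reagents of opposite intent gave the same sign. Of the 929 genes with at least 4 expressed probe sets, 33 (3.55%) had all of them above 0 in both comparisons. SMAD2 spans 121.9 kb and lies in the longest of the 5 span bins, whose own median was 0.22 with the mimics. With the median of genes of like span and signal taken off, its brightest probe set had 0.16 with the mimics and 0.23 with the antagomir.

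For SMAD3 the probe sets opposed each other. The brighter (205398_s_at) had 495 with miR-429 mimics against 667 with miR-NC mimics, and 462 with Antagomir-429 against 402 with Antagomir-NC. The other (218284_at) had 598 against 368, and 383 against 483. The log2 differences were thus -0.43 and 0.70 with the mimics, 0.20 and -0.34 with the antagomir, and -0.73 and 0.39 between the controls, of opposite sign each time. No direction is given for SMAD3. Among the 7 members with at least 2 expressed probe sets, 2 had them on both sides of 0 with the mimics, 3 with the antagomir and 4 between the controls, beside 46%, 57.2% and 53.8% of all such genes.

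SMAD4, the common partner of the receptor-activated SMADs, varied least. Its brightest probe set (202527_s_at) had 427 with miR-429 mimics and 424 with miR-NC mimics, and 361 with Antagomir-429 and 367 with Antagomir-NC, a highest over lowest fold of 1.18. The log2 differences were 0.01 with the mimics and -0.02 with the antagomir. The dimmer (235725_at) had 167 against 109 and, with the antagomir, 50.1 against 137, lower by a factor of at least 2.6 if the Antagomir-429 signal is set to the floor. The probe sets therefore do not agree on the antagomir array. Between the treated arrays the dimmer was at least 3.2-fold lower in EpCAM-positive cells.

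With Antagomir-429, 0 of the 9 genes were past 2-fold by the brightest probe set, where 7.25% of expressed genes were, 3.72% higher and 3.53% lower. The log2 differences ran between -0.50 and 0.24, with a median of -0.02 beside 0.01 over all expressed genes. By probe set, 1 of 19 was past 2-fold (the dimmer one of SMAD4) against 9.31% of all expressed probe sets. The lowest gene value belonged to SMAD7, the inhibitory SMAD, measured by 1 probe set (204790_at). Its signal was 1089 with Antagomir-429 against 1540 with Antagomir-NC, and 1298 with miR-429 mimics against 1284 with miR-NC mimics. The Antagomir-NC array was the highest of the 4 and the Antagomir-429 array the lowest. The log2 difference of -0.50 was 1.94 times the robust SD of 0.26 among genes of like signal, and 10.2% of expressed genes lay lower. With the mimics the value was 0.02.

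**Figure D3:**
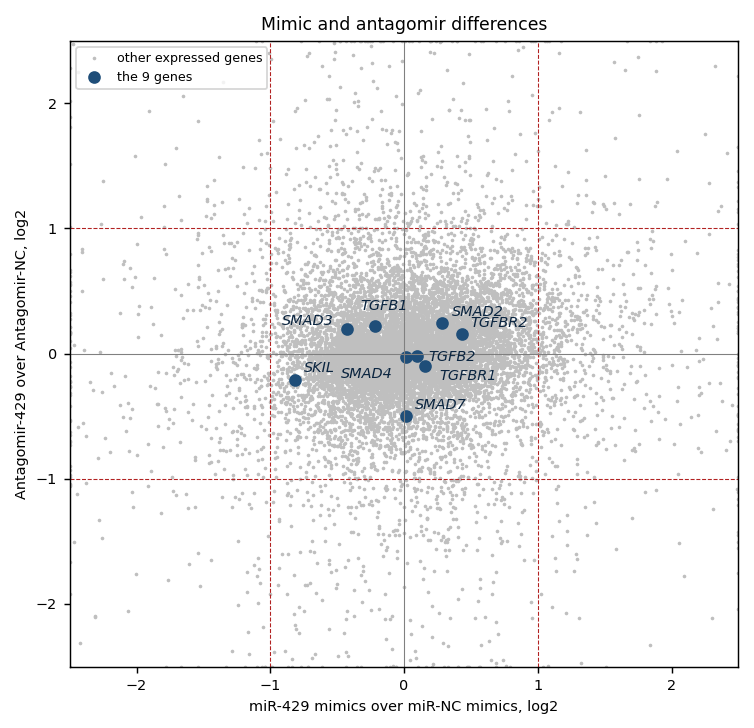
Log2 difference with miR-429 mimics over miR-NC mimics (x axis) against that with Antagomir-429 over Antagomir-NC (y axis) for each expressed gene, with 2-fold marked by dashed lines and genes beyond the axes drawn at the edge. All 9 genes lie inside the 2-fold lines, with SKIL at -0.82 on the x axis and SMAD7 at -0.50 on the y axis.

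A target of miR-429 that loses messenger RNA would be below 0 with the mimics and above 0 with the antagomir. By the brightest probe set 2 of the 9 genes had these signs, TGFB1 (-0.22 and 0.22) and SMAD3 (-0.43 and 0.20), beside 23.1% of expressed genes. For SMAD3 the second probe set had the reverse signs. For TGFB1 the dimmer probe set had the same signs. It was at least 2.2-fold lower with the mimics, from a signal under the floor. With the antagomir it had 0.05, which is 0.06 times the robust SD of 0.79 among genes of like signal. The opposite signs, above 0 with the mimics and below 0 with the antagomir, were held by 4 genes (TGFB2, TGFBR1, SMAD4 and SMAD7), beside 22% of expressed genes, and 2 (TGFBR2 and SMAD2) were above 0 in both, beside 27.9%. Of the 4, TGFB2 and TGFBR1 had other probe sets with other signs. The second probe set of TGFBR1 was above 0 in both (0.38 and 0.63), as was that of TGFB2 (209909_s_at, 0.89 and 0.90), while the third of TGFB2 (220407_s_at) was below 0 in both (-0.30 and -0.11). With the median over probe sets both genes were above 0 with the antagomir, TGFBR1 at 0.26 and TGFB2 at 0.08. Values this near 0 depend on the scaling: with each array centred on its median, TGFB2, SMAD4 and SMAD7 were below 0 with the mimics (-0.01, -0.10 and -0.09). Protein and reporter activity were not measured, so these signals do not bear on translation.

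**Figure D4:**
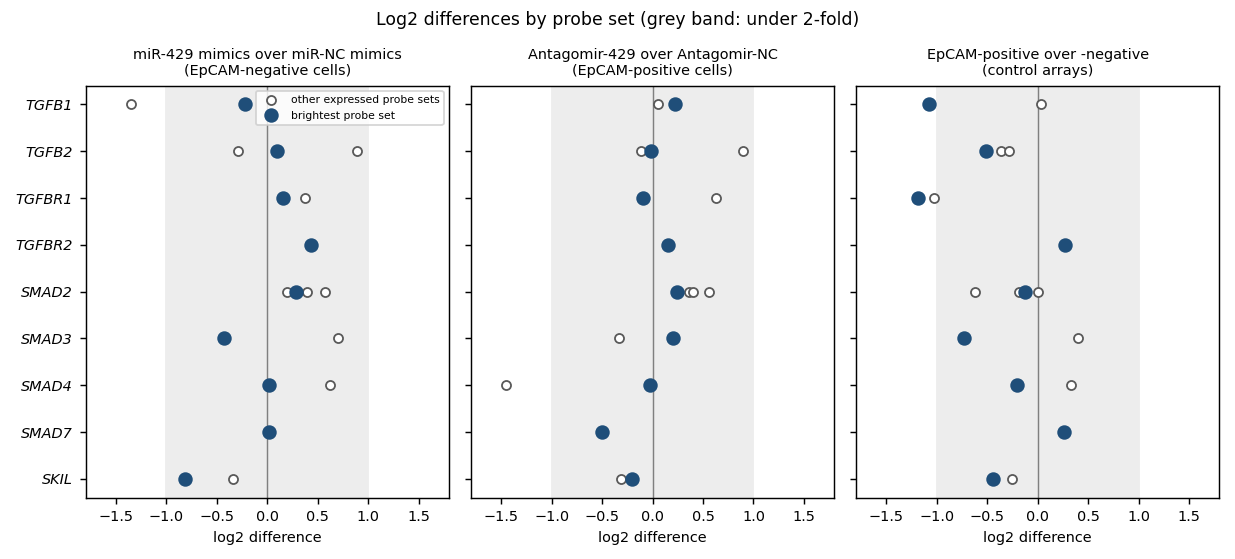
Log2 differences of each expressed probe set in the 3 comparisons, with the brightest probe set of each gene filled and the others open, and the range under 2-fold shaded. The 2 probe sets of SMAD3 lie on opposite sides of 0 in every panel, the 4 of SMAD2 are all above 0 in the first and second panels, and the 2 of TGFBR1 are both past 2-fold in the third.

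The rest of the pathway was described by 6 lists with 84 genes other than the members, of which 71 were expressed. With miR-429 mimics 9 of the 71 were past 2-fold, all higher, where 5.25% of all expressed genes were past 2-fold higher. The median was 0.33, beside -0.00 over all expressed genes, and the trend with gene span was not taken off. With Antagomir-429 3 were higher and 1 lower with a median of 0.01, and between the controls 2 were higher and 3 lower with a median of 0.00. The share past 2-fold was 12.7%, 5.6% and 7.0%, beside the 9.01%, 7.25% and 8.32% of all expressed genes. Some of these genes had a signal under the floor on 1 of the arrays compared. With such signals set to the floor, 8 were past 2-fold higher with the mimics, 2 higher and 1 lower with the antagomir, and 1 higher and 3 lower between the controls, or 11.3%, 4.23% and 5.63%, beside 7.09%, 4.63% and 5.93% of all expressed genes. The genes that dropped out were CDKN2B with the mimics and between the controls, and NODAL with the antagomir. With the authors' scaling replaced by centring on the array medians, the median of all genes in the mimic comparison moved to -0.11.

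Among ligands and genes of ligand activation, 17 were expressed, and 2 of these were past 2-fold higher with the mimics: BMP7, a bone morphogenetic protein (198 against 81.2), and NODAL, a ligand of early development, at least 2.3-fold from a signal under the floor. With the antagomir INHBE, a liver-expressed activin subunit, was lower (74.6 against 215), and LTBP2, a microfibril protein related to the latent TGF-beta binding proteins, was at least 2.3-fold higher. NODAL had 99.5 against 43.3 with the antagomir, at least 1.88-fold, so its place past 2-fold there rests on a signal under the floor. Between the controls ITGB8, an integrin subunit that activates latent TGF-beta, was lower in EpCAM-positive cells. Its signals were 62.0 with Antagomir-429 and 63.0 with Antagomir-NC, against 260 with miR-429 mimics and 167 with miR-NC mimics. Both EpCAM-positive arrays thus lay below both EpCAM-negative ones, as for TGFBR1, an order met by 18.9% of expressed genes. For ITGB8 and the other list genes only the brightest probe set was used, and their other probe sets were not compared. LTBP2 was at least 2.1-fold lower between the controls, on the same Antagomir-NC array that gave its antagomir difference. Past 2-fold among all expressed genes were 5.25% higher with the mimics, and 3.72% higher and 3.53% lower with the antagomir. Between the controls 4.7% were lower.

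The other receptors and the ligand traps held no gene past 2-fold in any comparison. Of all expressed genes 9.01%, 7.25% and 8.32% were past 2-fold in the mimic, antagomir and EpCAM comparisons. For lists of 9 and 5 expressed genes a count of 0 is near these shares. Among 9 expressed receptors the largest values were those of the coreceptor TGFBR3 with the mimics (0.83) and of the activin receptor ACVR2B between the controls (-0.54). The medians of these receptors were 0.28, 0.19 and 0.12 in the mimic, antagomir and EpCAM comparisons. Among 5 traps the largest was DCN, decorin, which binds TGF-beta (-0.79 with the mimics and -0.62 with the antagomir). Of the other SMADs 3 were expressed, and SMAD6, the inhibitory SMAD of the BMP branch, had 1212 with miR-429 mimics against 641 with miR-NC mimics, and 1148 and 1181 in the EpCAM-positive arrays. The miR-NC mimics array was thus the one that stood apart, and it gave SMAD6 both its mimic value (0.92) and its value between the controls (0.88).

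Of 18 expressed signal modulators, 3 were past 2-fold higher with the mimics: the SMAD ubiquitin ligase SMURF1 (529 against 255), its relative WWP1 (248 against 116) and the coactivator EP300 (312 against 141). Of all expressed genes, 5.25% were past 2-fold higher with the mimics. SMURF1 was 504 and 573 in the EpCAM-positive arrays, so the miR-NC mimics array was again the low one, and the difference between the controls was 1.17. The mimic and EpCAM comparisons share that array and are not independent.

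Of 21 expressed genes that TGF-beta is known to regulate, 4 were past 2-fold higher with the mimics and 0 lower. They were the docking protein NEDD9 (602 against 180), the transition factor SNAI1 (275 against 117), N-cadherin CDH2 (835 against 378), and CDKN2B, a CDK inhibitor (95.9 against 36.6). The control signal of CDKN2B was under the floor, so its difference is only known to be at least 1.81-fold, and without it 3 genes were past 2-fold. The median of the list was 0.13, with 13 above 0 and 8 below. Of all expressed genes, 5.25% were past 2-fold higher with the mimics and 3.76% lower, and 49.9% were above 0. With the antagomir MMP2, a gelatinase (146 against 58.5), and LTBP2 were higher. The median was -0.11, and 14 of the 21 were below 0, while 51.0% of all expressed genes were above 0. Between the controls CDKN2B was higher in EpCAM-positive cells by at least 1.98-fold, against the same miR-NC mimics signal under the floor, and MMP2 (58.5 against 143) and LTBP2 were lower, with a median of -0.12.

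**Figure D5:**
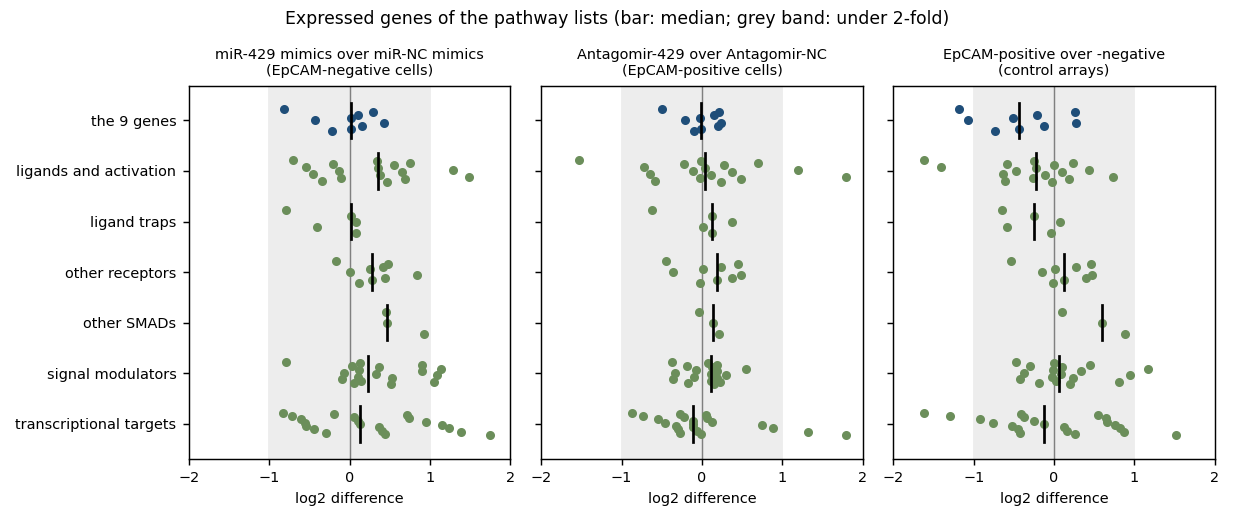
Log2 differences of the expressed genes of each pathway list in the 3 comparisons, with the 9 genes in the top row, 1 point a gene, the list's median as a bar and the range under 2-fold shaded. In the first panel the medians of ligands and activation (0.36), other receptors (0.28), other SMADs (0.47) and signal modulators (0.23) lie right of that of the 9 genes (0.02), and in the third the median of the 9 genes is at -0.44.

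The genes nearest to each bright member over the 4 arrays were taken by the root mean square distance of log2 signals centred on each gene's mean, among 8130 genes at or above a signal of 265.6. For TGFBR1 they were the ectonucleotidase NT5E (0.09), the insulin-like growth factor binding protein IGFBP1 (0.09) and the MAP kinase phosphatase DUSP5 (0.10). NT5E had signals of 550 with Antagomir-429 and 576 with Antagomir-NC, against 1364 with miR-429 mimics and 1137 with miR-NC mimics, the same split of the arrays as TGFBR1. For TGFB1 they were the kinase HIPK3, PHLDA1 and the stress ligand MICA (0.07 to 0.08). For SMAD7 the nearest was CLDN19, a claudin (0.02), for SMAD2 TNS4, a tensin (0.01), for TGFBR2 the histone gene H2BC21 (0.02), for SMAD3 POTEKP (0.03) and for SMAD4 the hexokinase HK1 (0.00). These genes were chosen for their likeness, so a shared split is no separate result, and 4 arrays give few points to compare. The distance was smallest for SMAD4, which varied least by its brightest probe set, so distances do not compare across members.

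The promoters of TGFB1 and TGFBR1, the 2 members past 2-fold between the control arrays by the brightest probe set, are shown as background. For TGFB1 that held by 1 of 2 expressed probe sets, and between the treated arrays this probe set was under 2-fold. The windows are from RefSeq on GRCh38.p14, 250 bases before to 50 after the first listed start. Capitals mark CAGAC, the core of the SMAD binding element, and GGGCGG, the GC box bound by SP1, on either strand (GTCTG and CCGCCC). The TGFB1 window lies on the minus strand at chr19:41353873-41354172 and the TGFBR1 window on the plus strand at chr9:99104863-99105162, the first of 8 listed starts.
TGFB1: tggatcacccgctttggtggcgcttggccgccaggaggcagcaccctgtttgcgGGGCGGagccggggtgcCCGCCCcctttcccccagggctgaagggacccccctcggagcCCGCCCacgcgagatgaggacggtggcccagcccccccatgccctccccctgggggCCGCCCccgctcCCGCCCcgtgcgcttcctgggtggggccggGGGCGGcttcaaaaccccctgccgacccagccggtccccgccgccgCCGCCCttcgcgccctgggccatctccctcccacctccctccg
TGFBR1: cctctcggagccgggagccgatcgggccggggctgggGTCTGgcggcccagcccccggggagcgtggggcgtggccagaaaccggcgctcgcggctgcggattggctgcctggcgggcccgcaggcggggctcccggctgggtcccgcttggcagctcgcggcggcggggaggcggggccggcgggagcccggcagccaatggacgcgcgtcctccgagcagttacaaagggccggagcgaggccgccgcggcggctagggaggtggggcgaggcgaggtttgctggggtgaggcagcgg
The windows hold 77.3% and 78.7% G and C. TGFB1 has 7 matches to the GC box and 0 to CAGAC, and TGFBR1 has 0 and 1. No match to one motif overlapped a match to the other. Each motif was found in 5 of the 9 members' windows, beside 45.0% of 27305 RefSeq windows of this length for CAGAC and 44.6% for GGGCGG.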

How the data were processed

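Total RNA from 4 samples was measured on 1 array each. The authors deposited log2 values of MAS5 signals, and MAS5 is named in the submitters' processing notes. Neither its version nor its target level is given in the sources used here. Back on the linear scale, each array had a mean of 500.1 once 2% was trimmed from either end, and no further scaling was applied. Platform annotation, which can be old, gave 1 symbol to 41091 probe sets and several to 1801, and 41037 of the former matched RefSeq (GRCh38.p14) by Entrez identifier. A gene was represented by its brightest probe set. Differences are log2 differences between single arrays, computed with pandas 2.3.3, and code was tested on simulated data. With 1 array per group no p-value was computed, and precision is limited by the number of arrays. The scatter is the robust SD of log2 differences over expressed genes in 4 signal bins. It is no replicate error. Where the dimmer array lay below the floor, the floor replaced its signal and the fold is written as "at least".

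The members, the lists and the comparisons were chosen with earlier results of these data known. The rule for named genes took all 9 members, EPCAM, up to 4 genes per list and comparison past 2-fold (up to 2 with an array under the floor), the 2 largest where there was none, and the 3 nearest in pattern. The marker genes ALB, AFP, APOA1, AMBP, KRT8, KRT18, KRT19, PTPRC, CD3E and ITGAM were added after the values were seen. So were the comparison of the treated arrays and the counts with signals under the floor set to it. The alternatives tried were centring on array medians, quantiles made equal over arrays, an offset of 13.2 before log2, the median over probe sets, no filter, a filter at the 75th percentile, and matching on span and signal.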

Additional observations from a re-analysis of the deposited data

How the results depend on the processing

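Of 219 recomputed member values, 208 moved by less than the robust SD of genes with like signal, 11 moved by more, 0 past 2-fold turned sign, and 16 of any size turned sign. The 219 include the filter settings and the setting of signals to the floor, which by construction leave a member's brightest probe set unchanged. They also include the treated pair, which is another pair of arrays and no processing choice. The 208 therefore overstate how little the values depend on processing. TGFBR1 between the controls stayed between -1.27 and -1.11. The members' count past 2-fold lower between the controls was 1 with the median over probe sets, and 1 between the treated arrays, in place of 2. The members' median between the controls was -0.17 with the median over probe sets in place of -0.44. With the 75th percentile filter, which leaves 7 genes, it was -0.21. In the antagomir comparison that filter gave 0.15 in place of -0.02. In the other counts of members past 2-fold, all 0, no alternative gave another number. The number of genes past 2-fold followed the filter, which changes how many are counted. With no filter it was 2539 higher and 2248 lower with the mimics, 2226 and 2412 with the antagomir, and 2264 and 2539 between the controls, in place of 692 and 496, 490 and 465, and 477 and 619. With the 75th percentile filter it was 146 and 36, 24 and 15, and 60 and 60. With signals under the floor set to it, chosen after seeing the data, the antagomir counts were 318 and 292, and 315 genes were higher between the controls. Median centring turned the split with the mimics to 549 higher and 628 lower, and the members' median to -0.09, from 0.02. Quantile normalization gave 615 and 574, and -0.03. With the mimics SMAD3 changed sign with the median over probe sets (0.14), and TGFB1 had -0.79 there. No paired analysis was possible because each group has 1 array. Dim signals limit TGFB2 most, the only 1 of the 9 in the lowest signal bin by its brightest probe set (robust SD 0.82 with the mimics).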
